A study of Mus musculus with 7 samples.

Results

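RNA of 36 mouse genes of the centromere and kinetochore was examined in 7 libraries of pluripotent cells. The genes were chosen by symbol, each matched 1 row of the deposited table, and they are 36 of 54838 genes in it. They were put together with earlier results of these libraries known, and Hjurp was singled out for its levels, so Hjurp is described by its values with no test. The libraries are 1 of V6.5, an established embryonic stem cell (ESC) line, and 3 colonies from each of a pair of B cell sources, all induced pluripotent stem cells (iPSCs). Male mice were immunized with SRBC and germinal center B cells (B220+ CD38- Fas+) were sorted from the spleen on day 9. They were taken in bulk (GC colonies) or by the endogenous Myc-GFP reporter of T follicular helper cell activation (M colonies; the titles give only the letter M, read here as this source). The sorted cells of both sources spent 6 days on mouse embryonic fibroblast feeders with cytokines. Doxycycline then drove reprogramming for 10 days, and 4 days without it followed. Each colony is 1 hand-picked clone, passaged on gelatin, with a 45 min pre-plating step against leftover feeder cells. All cultures, ESC included, were kept in KO-DMEM with FBS and LIF. The labels tie no colony to a mouse, a batch or a day, so p-values measure the spread between these colonies, which may be technical, and source and donor cannot be told apart.

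The centromere is the stretch of each chromosome where the kinetochore is built, the protein machine that grips spindle microtubules in mitosis. Its place is marked by nucleosomes that hold CENP-A (encoded by Cenpa), a variant of the core histone that takes the place of the usual one. CENP-A is diluted as DNA is copied and is refilled after mitosis by the chaperone HJURP (Hjurp), which is brought to the centromere by the Mis18 complex (Mis18a and Oip5 encode subunits of it). On CENP-A chromatin sits the constitutive centromere network (CENP-C and the subunits encoded by Cenph to Cenpw). The network holds the KMN network of KNL1, the MIS12 complex and the NDC80 complex, whose NDC80 part binds microtubules. The checkpoint kinases and the chromosomal passenger complex (Aurkb, Incenp, Birc5 and Cdca8) watch and correct attachments. Pluripotent stem cells divide fast, and most of these genes are transcribed mainly in late cell cycle phases.

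Many genes of late cell cycle phases are controlled through the cell cycle genes homology region (CHR), with the letters TTTGAA, close to the start site. Promoter windows of 6 members that hold these letters are shown, Hjurp, Cenpa and others whose levels are described below, because they share this feature while their levels differ. Promoter sequences of 250 bases before to 50 bases after the start site came from RefSeq (GRCm38.p6), which had entries for 32 of the 36 genes. Windows of 30 bases are printed on the strand of the gene, 5′ to 3′, with the CHR letters, or their reverse complement TTCAAA, in capitals.
Hjurp, chr1:88277543-88277572, minus strand: tgcgtaaatactTTTGAAagaccctattag
Cenpa, chr5:30666890-30666919, plus strand: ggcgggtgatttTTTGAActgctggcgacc
Oip5, chr2:119618456-119618485, minus strand: aagaggcgcgcgcTTCAAAgaaatatggcg
Cenpn, chr8:116921719-116921748, plus strand: gccattggcggcTTCAAAagcacctcggcg
Spc25, chr2:69206172-69206201, minus strand: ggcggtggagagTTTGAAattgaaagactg
Bub1b, chr2:118598231-118598260, plus strand: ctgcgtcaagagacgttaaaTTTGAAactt
The capitals begin at base 20 after the start site in Hjurp and at base 17 in Cenpa, counting the start site as base 1. In Cenpn they begin 9 bases before it. Searched on both strands, the letters occurred in 13 of 32 members (40.6%) and in 20.2% of 27025 genes with an entry. Within 50 bases of the start site they occurred in 11 of 32 members (34.4%) and in 5.72% of all genes. The CCAAT box (CCAAT, both strands) occurred in 21 of 32 members (65.6%) against 41.1% of all genes. E2F letters (TTTCCCGC, TTTGGCGC, TTTCGCGC or TTTGCCGC, both strands) occurred in 5 members, among them Mis18a and Cenpb, that is in 15.6% against 2.6%. No searched motif contains another. The window of Cenpt held none of the 3 motifs, and such matches describe the letters only.

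The 7 libraries held 31139508 (ESC) to 35728921 counts (GC colony 1), and 3 counts, the limit that a count of 0 allows, came to 0.0840 to 0.0963 CPM (counts scaled to library size). Each of the 36 genes passed the low-count filter, and the lowest count of any member was 399, that of Cenpk in M colony 3. Levels below are CPM scaled by TMM over the 7 libraries, with the SD over colonies. The marker sums in this paragraph are plain CPM, scaled to library size without TMM. The 8 pluripotency markers were high in each library, with summed CPM of 6900 in ESC, 5350 to 5730 in GC colonies and 5190 to 5660 in M colonies. B cell markers summed to 4.02 to 6.90 CPM, with Blk at 0 in each library. The 8 primitive endoderm markers summed to 104 CPM in ESC, 374 to 476 CPM in GC colonies and 564 to 966 CPM in M colonies. The 8 fibroblast markers summed to 371 CPM in ESC, 557 to 641 CPM in GC colonies and 608 to 790 CPM in M colonies. Pdgfra is in both the fibroblast and the primitive endoderm list. M colonies 2 and 3 had 0 counts over 4 Y-linked genes, where M colony 1 and the GC colonies had 3732 to 4699 counts and ESC had 740. The donors are given as male, and the reason for the 0 counts was not tested. M colonies 2 and 3 thus differ from M colony 1 in this trait, and fits without them are given below.

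The first comparison, M against GC colonies, asks whether the B cell state at sorting goes with a difference in the reprogrammed cells. Hjurp stood higher in M colonies. Of the 35 other members, 1 fell (Cenpt), 0 rose and 34 did not pass the test (edgeR adjusted p under 0.05, Benjamini-Hochberg over 18166 genes). Of all genes tested, 3.97% passed (1.7% rose and 2.27% fell), and 2.86% of the 35 members fell, a share near the background. DESeq2 called 2 of the 35 (Cenpt and Cenpi, both lower) and 0 higher, and of all genes 569 lower and 541 higher. At an unadjusted edgeR p under 0.05 there were 2 members lower and 0 higher, and the share of all genes at that threshold was not counted. The median log2 change of the 35 was -0.006, against 0.003 for all genes tested, and single members ran from -0.362 (Cenpi) to 0.157 (Cenpe). In M colonies 17 members were higher and 18 lower by the sign of the change.

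Hjurp (ENSMUSG00000044783, chromosome 1 from 88262471 to 88277633, minus strand, GRCm38), the CENP-A chaperone, was at 327.0 CPM in ESC. GC colonies 1 to 3 held 206.5, 209.4 and 223.2 CPM. M colonies 1 to 3 held 350.3, 359.3 and 362.3 CPM. The M and GC values did not overlap, the ESC library lay between them, and it was nearer to the M colonies. GC colonies averaged 213.1 ± 8.93 CPM and M colonies 357.3 ± 6.23 CPM (SD, n = 3 each), a ratio of 1.68. The fitted log2 difference, M minus GC, was 0.74 ± 0.06 (SE). It was 0.72 to 0.78 when any 1 colony was left out, and 0.71 ± 0.09 (SE) in M colony 1 against GC colonies, without M colonies 2 and 3.

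**Figure D1:**
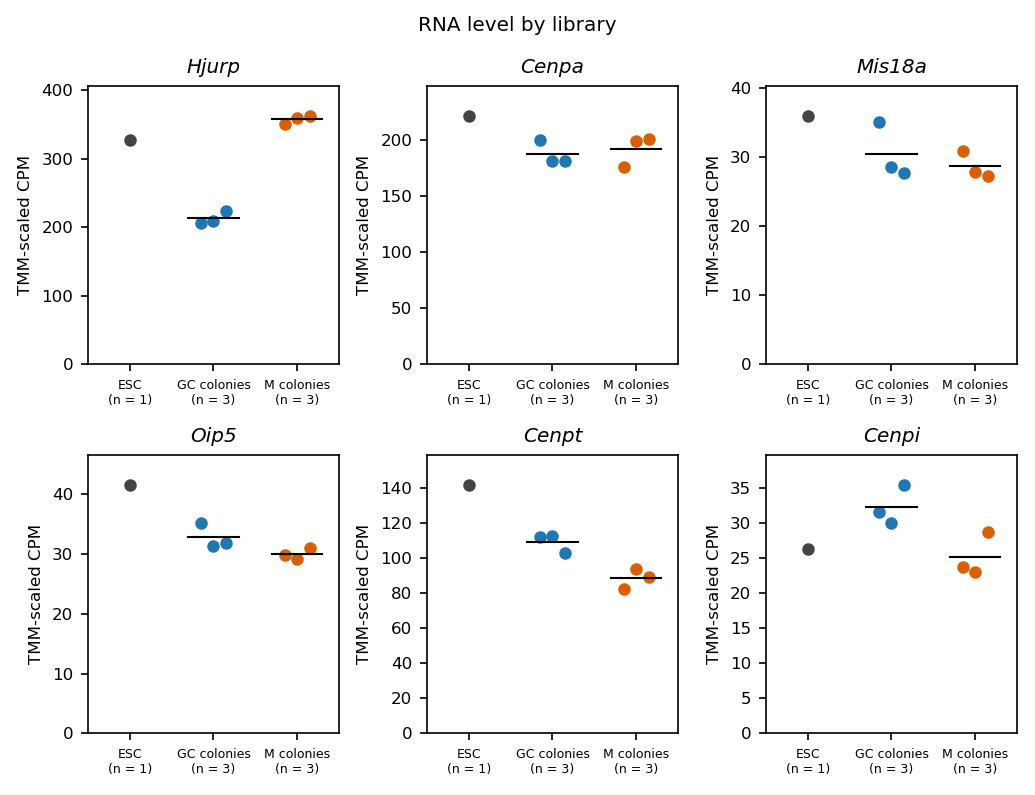
Level of 6 members in each library, in TMM-scaled CPM on a linear axis from 0; points are libraries and bars are means of 3 colonies. For Hjurp the 3 M colonies lie at 350.3 to 362.3 CPM and the 3 GC colonies at 206.5 to 223.2 CPM, while the Cenpa values of these groups overlap.

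Of the other deposition genes, 0 of 3 passed in edgeR or DESeq2, and 0 had an unadjusted p under 0.05. Cenpa, the histone that HJURP carries, was at 221.3 CPM in ESC. GC colonies 1 to 3 held 199.9, 181.4 and 181.2 CPM of it, and M colonies 1 to 3 held 175.8, 199.2 and 201.1 CPM. The ranges of GC and M colonies overlapped almost wholly, with a log2 change of 0.03 ± 0.07 (SE) and an edgeR adjusted p = 0.885. Leaving out M colony 3, or M colonies 2 and 3 together, made the sign negative. Mis18a, a core subunit of the Mis18 complex, averaged 30.4 ± 3.99 CPM over GC colonies and 28.6 ± 1.96 CPM over M colonies (SD, n = 3 each), with overlapping values. Oip5, its other core subunit, held 35.26, 31.27 and 31.82 CPM in GC colonies and 29.92, 29.25 and 30.96 CPM in M colonies. These Oip5 values did not overlap, but the change of -0.13 ± 0.09 (SE) did not pass the edgeR test (adjusted p = 0.514). Set per kilobase of transcript, Hjurp RNA stood to Cenpa RNA at 0.343 ± 0.030 in GC colonies, 0.561 ± 0.033 in M colonies (SD, n = 3 each) and 0.444 in ESC. With the length of all annotated exons the ratio was 0.802 ± 0.071, 1.31 ± 0.077 and 1.04, so its size depends on the length used. It rests on the Hjurp values that chose the gene and is given as a description.

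Cenpt was the member of the constitutive centromere network that fell in M colonies. It encodes a histone-fold protein that forms a bridge from centromeric DNA to the NDC80 complex (ENSMUSG00000036672, chromosome 8 from 105844673 to 105853278). Cenpt was at 141.9 CPM in ESC, at 112.3, 112.4 and 103.0 CPM in GC colonies 1 to 3, and at 82.6, 94.0 and 89.0 CPM in M colonies 1 to 3. Each M colony was below each GC colony, and each colony was below ESC. The log2 change, M minus GC, was -0.31 ± 0.07 (SE), with an edgeR adjusted p = 0.0307 (lower in 3 of 3 M colonies). The call did not hold without GC colony 1 (adjusted p = 0.109), GC colony 2 (0.205), M colony 1 (0.0887), M colony 3 (0.133) or M colonies 2 and 3 (0.0917), by the same test. Cenpw, whose protein pairs with CENP-T, averaged 25.7 ± 1.85 CPM over GC and 27.8 ± 3.42 CPM over M colonies (SD, n = 3 each) and did not pass.

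Cenpi, a subunit of the CENP-H, I, K and M group that lies on chromosome X, had the widest difference among the members that did not pass. GC colonies 1 to 3 held 31.6, 30.1 and 35.5 CPM of it. M colonies 1 to 3 held 23.8, 23.1 and 28.8 CPM, below each GC colony, and ESC held 26.3 CPM, inside the M range. The log2 change was -0.36 ± 0.11 (SE), with an edgeR adjusted p = 0.0857, and it passed in DESeq2 (adjusted p = 0.0346). The median change of 516 protein-coding genes tested on chromosome X was 0.04. Of the other subunits in this group, Cenph was 47.8 ± 1.06 and 48.5 ± 2.57 CPM, Cenpk 13.3 ± 0.716 and 14.0 ± 1.63 CPM, and Cenpm 60.5 ± 6.23 and 53.2 ± 5.54 CPM over GC and over M colonies (SD, n = 3 each). These 3 did not pass. Beside Hjurp, 3 members (Cenpt, Cenpi and Oip5) had M and GC values that did not overlap, which is 8.57% of 35 against 22.1% of all genes tested.

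The rest of the network gave no call between the colony groups. Cenpc1, which encodes the CENP-C scaffold, averaged 46.2 ± 3.84 CPM over GC and 46.9 ± 1.78 CPM over M colonies (SD, n = 3 each). Cenpl and Cenpn, whose proteins read the CENP-A nucleosome as a pair, had log2 differences of -0.02 ± 0.11 (SE) and -0.04 ± 0.08 (SE). Cenpo, Cenpp, Cenpq and Cenpu, the subunits of a further group, had log2 changes between -0.14 and 0.00. Cenpb, whose protein binds a short DNA box in centromeric satellite repeats, held 47.9 CPM in ESC, 50.1, 51.3 and 47.8 CPM in GC colonies 1 to 3, and 55.0, 53.6 and 50.8 CPM in M colonies 1 to 3. The groups overlapped and the change did not pass (edgeR adjusted p = 0.586). Its gene lies wholly within the annotated span of Spef1 on the same strand, so its counts are uncertain.

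The genes of the outer kinetochore, checkpoint and passenger complex gave no call between M and GC colonies in edgeR or DESeq2, and 0 had an unadjusted p under 0.05. The 9 KMN genes had log2 changes from -0.12 (Spc24) to 0.10 (Knl1), with SE from 0.07 to 0.10. Ndc80, the microtubule-binding subunit, averaged 64.6 ± 5.91 CPM over GC and 64.4 ± 0.422 CPM over M colonies (SD, n = 3 each). Nuf2, its partner, was 55.1 ± 0.852 and 55.0 ± 2.40 CPM. The checkpoint genes Bub1, Bub1b and Mad2l1 had log2 differences of -0.07 ± 0.06, -0.02 ± 0.07 and 0.01 ± 0.06 (SE), and the 4 passenger complex genes had values from -0.10 to 0.04. Bub1b, the checkpoint kinase BUBR1 and the most abundant checkpoint gene here, held 278.2, 279.8 and 306.2 CPM in GC colonies 1 to 3 and 264.1, 305.1 and 283.5 CPM in M colonies 1 to 3, with wide overlap. Cenpe, the kinetochore motor that moves chromosomes to the spindle equator, was 104.0, 113.2 and 148.6 CPM in GC colonies 1 to 3. It was 131.5, 134.9 and 142.3 CPM in M colonies 1 to 3, and GC colony 3 was above each of them. The change of 0.16 ± 0.11 (SE) did not pass (edgeR adjusted p = 0.524). Without GC colony 3 it was 0.33 and passed (adjusted p = 0.0189).

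**Figure D2:**
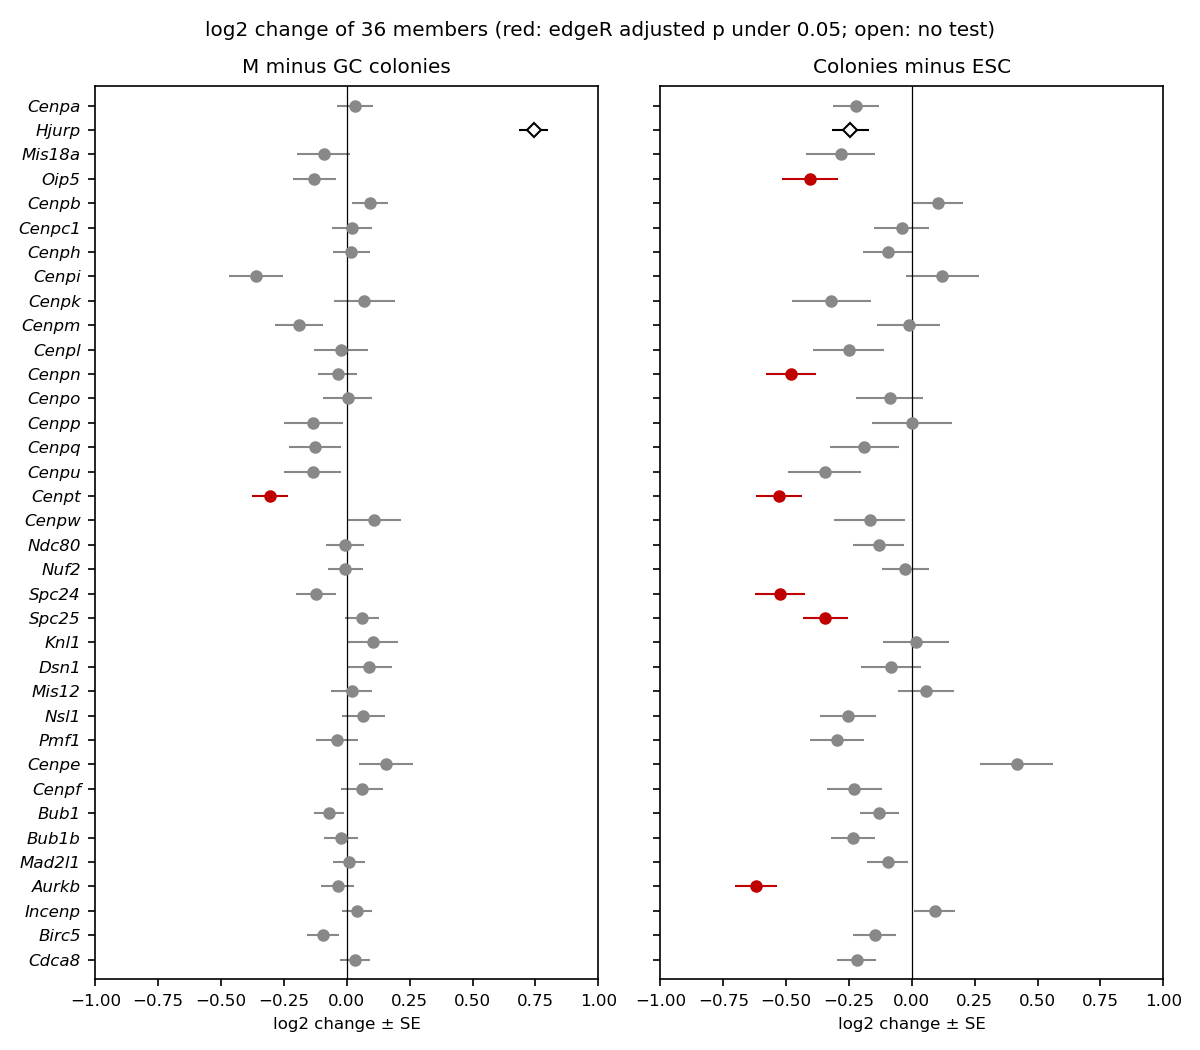
Fitted log2 change of each of the 36 members (rows, in the order of their roles) for M minus GC colonies (left) and colonies minus ESC (right), with bars of 1 SE. Red points passed the edgeR test; Hjurp is open because it was not tested, and it stands at 0.74 on the left.

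The second comparison sets the 6 colonies against ESC, an established line. Since there is a single ESC library, only colonies give a spread, and ESC is taken to vary as they do. Colonies had less RNA than ESC of 6 of the 35 members: Aurkb, Cenpt, Spc24, Cenpn, Oip5 and Spc25, with 0 risen and 29 not passing. The edgeR calls are 17.1% of the 35, against 7.56% of all 20502 genes tested that fell and 8.76% that rose (16.3% called in all). That background also spans genes of low level. DESeq2 called 6 members lower and 1 higher (Cenpe), and of all genes 1538 lower and 1927 higher. At an unadjusted edgeR p under 0.05 there were 12 members lower and 1 higher. The share of all genes at that threshold was not counted, so these counts have no background here. The median log2 change of the 35 members was -0.17, against 0.02 for all genes tested, and 29 were lower and 6 higher by sign. The ESC library was above each of the 6 colonies for 21 of the 36 members (58.3%), against 25.7% of all genes tested. It was below each of them for 2 of the 36 (Cenpe and Incenp), a smaller share than the 25.7% of all genes tested. In bulk RNA, fewer cells in a phase or of a type and less RNA per cell cannot be told apart.

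Aurkb, the kinase of the chromosomal passenger complex that releases faulty attachments, had the largest fall. It was 179.1 CPM in ESC, 122.4, 118.5 and 112.9 CPM in GC colonies 1 to 3, and 110.2, 121.9 and 113.7 CPM in M colonies 1 to 3. The colonies lay close together, apart from ESC, with a log2 change of -0.62 ± 0.08 (SE) and an edgeR adjusted p = 2.21e-04 (lower in 6 of 6 colonies). The other genes of this complex did not pass. Incenp, its scaffold, was 193.5 CPM in ESC and 206.0 ± 8.46 CPM in colonies (SD, n = 6). Birc5, which encodes survivin, was 125.0 CPM in ESC, 120.5, 117.3 and 111.7 CPM in GC colonies 1 to 3, and 111.3, 104.4 and 112.3 CPM in M colonies 1 to 3, a change of -0.15 ± 0.09 (SE). Cdca8, which encodes borealin, was 194.3 CPM in ESC and 166.9 ± 5.32 CPM in colonies. Per kilobase of transcript, the ratio of Aurkb to Incenp RNA was 1.54 in ESC and 0.941 ± 0.073 in colonies. This ratio sets the member with the largest fall against Incenp, which was lower in ESC than in each colony. Its size depends on the length used, and it is given as a description.

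Of the 4 NDC80 complex genes, 2 fell. Spc24 and Spc25, which encode the end that docks on the inner kinetochore, were those that passed. Spc24 was 108.0 CPM in ESC, 84.5, 78.7 and 71.5 CPM in GC colonies 1 to 3, and 73.8, 75.5 and 66.7 CPM in M colonies 1 to 3, a log2 change of -0.52 ± 0.10 (SE, edgeR adjusted p = 0.00286). Spc25 was 101.9 CPM in ESC, 76.8, 75.9 and 82.9 CPM in GC colonies, and 80.7, 80.1 and 85.4 CPM in M colonies, a change of -0.34 ± 0.09 (SE, edgeR adjusted p = 0.0164). Both were lower in 6 of 6 colonies. Ndc80 and Nuf2, which encode the end that binds microtubules, were 70.7 and 56.1 CPM in ESC against 64.5 ± 3.75 and 55.1 ± 1.61 CPM in colonies (SD, n = 6), and did not pass. The difference between the subunits was not tested. Of the MIS12 complex, 0 of 4 genes passed in edgeR or DESeq2, and 2 were lower at an unadjusted edgeR p under 0.05. The largest change was in Pmf1 (-0.30 ± 0.11 SE, edgeR adjusted p = 0.0759), at 113.0 CPM in ESC, 104.2, 93.1 and 82.0 CPM in GC colonies 1 to 3, and 92.0, 89.3 and 90.8 CPM in M colonies 1 to 3. The GC colonies were spread widely, and each colony was below ESC.

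**Figure D3:**
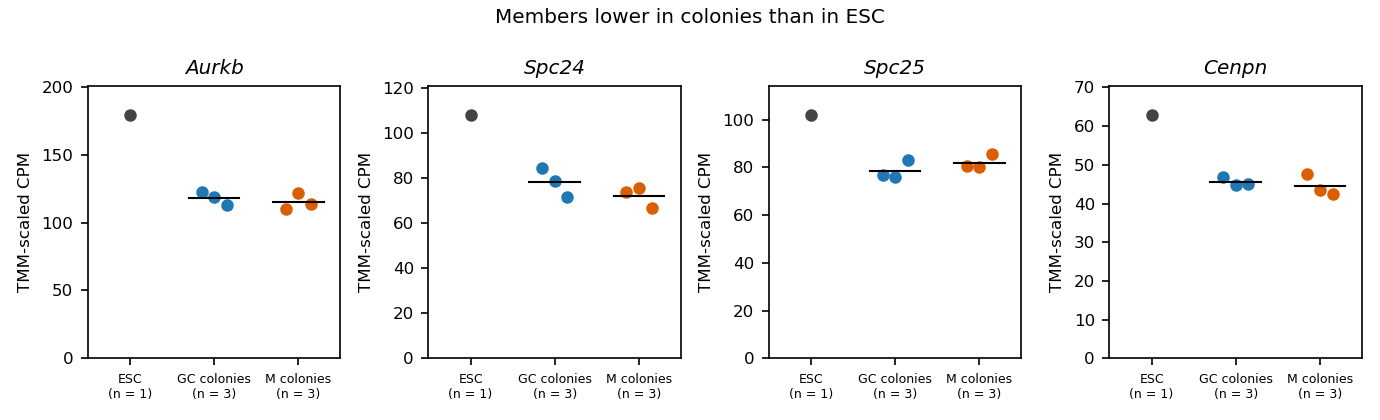
Level of 4 of the 6 members that fell in colonies against ESC, in TMM-scaled CPM on a linear axis from 0; points are libraries and bars are means of 3 colonies. In each panel the ESC library is above the 6 colonies, for Aurkb at 179.1 CPM against 110.2 to 122.4 CPM.

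Cenpt and Cenpn fell among the 13 genes of the constitutive network, and 11 did not pass. Cenpt changed by -0.53 ± 0.09 (SE, edgeR adjusted p = 0.00124). Cenpn, whose protein binds the CENP-A nucleosome, was 62.8 CPM in ESC, 46.9, 44.7 and 45.0 CPM in GC colonies 1 to 3, and 47.6, 43.4 and 42.4 CPM in M colonies 1 to 3. Its change was -0.48 ± 0.10 (SE, edgeR adjusted p = 0.00430). Both genes lie on chromosome 8, as does Cenpu (-0.35 ± 0.15 SE, not passing), and 814 protein-coding genes tested on that chromosome had a median change of -0.28 in the same comparison. The medians of the other autosomes that hold members ran from -0.06 to 0.07, and the part of chromosome 8 in these changes was not tested. Between M and GC colonies the chromosome 8 median was 0.01.

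Oip5 was the CENP-A deposition gene that fell, from 41.6 CPM in ESC to 31.4 ± 2.10 CPM in colonies (SD, n = 6). The change was -0.41 ± 0.11 (SE), with an edgeR adjusted p = 0.0234, lower in 6 of 6 colonies. It did not hold without GC colony 2 (adjusted p = 0.0588). Cenpa was 221.3 CPM in ESC and 189.8 ± 11.5 CPM in colonies and did not pass (edgeR adjusted p = 0.123), although ESC was above each colony. Mis18a, at 35.9 and 29.5 ± 2.98 CPM, did not pass either. Hjurp gave a log2 difference of -0.25 ± 0.07 (SE) over all colonies, which averages GC colonies below ESC and M colonies above it. Of the 6 members that were higher in colonies by sign, Cenpe had the largest difference, at 96.6 CPM in ESC and 129.1 ± 17.2 CPM in colonies (SD, n = 6), a change of 0.42 ± 0.15 (SE, edgeR adjusted p = 0.0707) that passed in DESeq2 (adjusted p = 0.0258). The checkpoint genes ran from -0.24 (Bub1b) to -0.10 (Mad2l1) without a call.

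Other centromere and kinetochore genes, and genes of the cell cycle phases, were read beside the members. In M against GC colonies 1.7% of all 18166 genes tested rose and 2.27% fell in edgeR, and DESeq2 called 541 higher and 569 lower. The share of all genes at an unadjusted p under 0.05 was not counted. Between M and GC colonies 1 of 32 other kinetochore genes fell (Zfp330), 1 of 28 other G2 and M phase genes rose (Mybl2) and 0 of 30 S phase genes passed (0 in DESeq2, and 3 at an unadjusted edgeR p under 0.05, 2 higher and 1 lower), with medians of 0.01, 0.02 and 0.00 on the log2 scale. Mybl2, a transcription factor of late cell cycle genes, averaged 626.0 ± 14.5 CPM over GC and 722.5 ± 20.8 CPM over M colonies (SD, n = 3 each). Mki67, a proliferation marker, was 293.7 ± 58.7 and 364.1 ± 33.6 CPM and did not pass (edgeR adjusted p = 0.181). Its log2 change of 0.31 was the highest of the 28 G2 and M phase genes, of which 18 were higher and 10 lower by sign. Of the cell type markers in the same comparison, the 8 primitive endoderm genes had a median of 0.64 and were each higher in M colonies by sign. Cubn (1.07 ± 0.16 SE, edgeR adjusted p = 0.00285) and Dab2 (0.89 ± 0.14 SE, edgeR adjusted p = 0.00413) rose, DESeq2 called 4 and 7 had an unadjusted edgeR p under 0.05. Pou5f1, a pluripotency factor, rose by 0.39 ± 0.05 (SE, edgeR adjusted p = 0.0012), from 373.7 ± 3.36 to 491.3 ± 12.4 CPM (SD, n = 3 each). It was the single edgeR call among 8 pluripotency genes, while DESeq2 called 1 higher and 1 lower. By sign 3 of these 8 were higher and 5 lower in M colonies, with a median of -0.055. At an unadjusted edgeR p under 0.05, 1 was higher and 3 were lower. Of the 7 fibroblast markers tested, 0 passed in edgeR and DESeq2 called 1 higher. By sign 7 were higher in M colonies, with a median of 0.23. The part of the cell type markers in the values of Hjurp and Cenpt was not tested. In colonies against ESC, 7.56% of all genes tested fell and 8.76% rose. Of the 32 other centromere and kinetochore genes 7 fell (21.9%) and 1 rose (3.12%). Sgo2a, which encodes a protector of sister chromatid cohesion, was 68.3 CPM in ESC and 43.8 ± 1.47 CPM in colonies (SD, n = 6). Ska3, of a complex that holds kinetochores to microtubule ends, was 74.6 and 57.4 ± 3.95 CPM. The gene that rose was Dnmt3b, a DNA methyltransferase that acts on centromeric repeats, from 105.3 to 329.4 ± 53.8 CPM. Of the G2 and M phase genes 8 of 28 fell (28.6%), Ccnb1 and Racgap1 among them, and 0 rose (median -0.18). Of the S phase genes 8 of 30 fell (26.7%), Mcm5, Cdt1 and Pcna among them, and 0 rose (median -0.16). The median of the members was -0.17. Of the 8 pluripotency markers 6 fell in colonies (75.0%) and 0 rose, with a median of -0.39. Each of the 8 primitive endoderm markers rose in colonies, by 2.08 to 2.82 on the log2 scale. Of the 7 fibroblast markers tested, 4 rose in colonies (57.1%) and 0 fell, with a median of 0.65. The part of the cell cycle and of the pluripotency, primitive endoderm and fibroblast markers in the members' changes was not tested.

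Per kilobase of transcript, the only scale on which genes are compared here, members spanned a wide range in the 6 colonies. Lengths are those of the longest principal transcript in GENCODE. Cenpa was the most abundant at 129.4 ± 7.84 CPM per kilobase (SD, n = 6), next to Birc5 at 119.2 ± 5.88, whose spread overlapped it. Cenpu (5.26 ± 0.442) and Cenpo (5.27 ± 0.328) were lowest. Of the deposition genes, Hjurp stood at 58.5 ± 16.3 CPM per kilobase, Oip5 at 29.0 ± 1.94 and Mis18a at 22.1 ± 2.24. In the constitutive network Cenpt led at 54.5 ± 6.82, and its partner Cenpw stood at 17.5 ± 1.77. Within the NDC80 complex Spc25 (67.2 ± 3.03) and Spc24 (55.0 ± 4.46) stood above Ndc80 (29.3 ± 1.70) and Nuf2 (22.9 ± 0.671), although the proteins form 1 complex. With the length of all annotated exons in place of the transcript, Bub1b led at 66.9 CPM per kilobase and Cenpa had 32.4, so the order depends on the length used.

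Hjurp had the widest spread over the 6 colonies, with a coefficient of variation of 27.8%, followed by Cenpi (16.4%), Cenpe (13.3%) and Cenpt (12.5%). This spread pools GC and M colonies, and for Hjurp it restates the difference for which the gene was chosen. Within the GC colonies the coefficient was 4.19% for Hjurp, against a median of 5.83% over the members, and within the M colonies 1.74% against 5.27%. The steadiest over the 6 colonies were Nuf2 (2.93%), Mad2l1 (3.14%) and Cdca8 (3.19%). Within the GC colonies, colony 3 was the highest for 16 members and colony 1 for 14. Cenpf, which encodes a large kinetochore corona protein, was 150.7, 168.8 and 195.1 CPM in GC colonies 1 to 3. Knl1, the scaffold of the KMN network, was 62.9, 75.2 and 85.9 CPM, while Pmf1, a short MIS12 complex gene, was highest in GC colony 1 and lowest in GC colony 3. Many members with long transcripts were higher in GC colony 3, and many with short ones in GC colony 1. The log2 difference between these colonies had a Spearman correlation with transcript length of 0.69 over the 36 members and of 0.40 over 15531 genes. It was 0.67 and 0.17 between GC colonies 2 and 1, and 0.41 and 0.32 between GC colonies 3 and 2. Between M colonies 3 and 1 it was 0.26 and 0.10, between 2 and 1 it was 0.17 and 0.12, and between 3 and 2 it was -0.06 and -0.03. For the change of colonies against ESC it was 0.40 and 0.10, and for M against GC colonies 0.45 and 0.10 (the latter over 14684 genes). The 36 members include Hjurp, so the value of 0.45 takes in the M minus GC difference for which that gene was chosen. These correlations are across genes, whose points share the libraries and are not independent, and the part of transcript length in the changes was not tested.

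**Figure D4:**
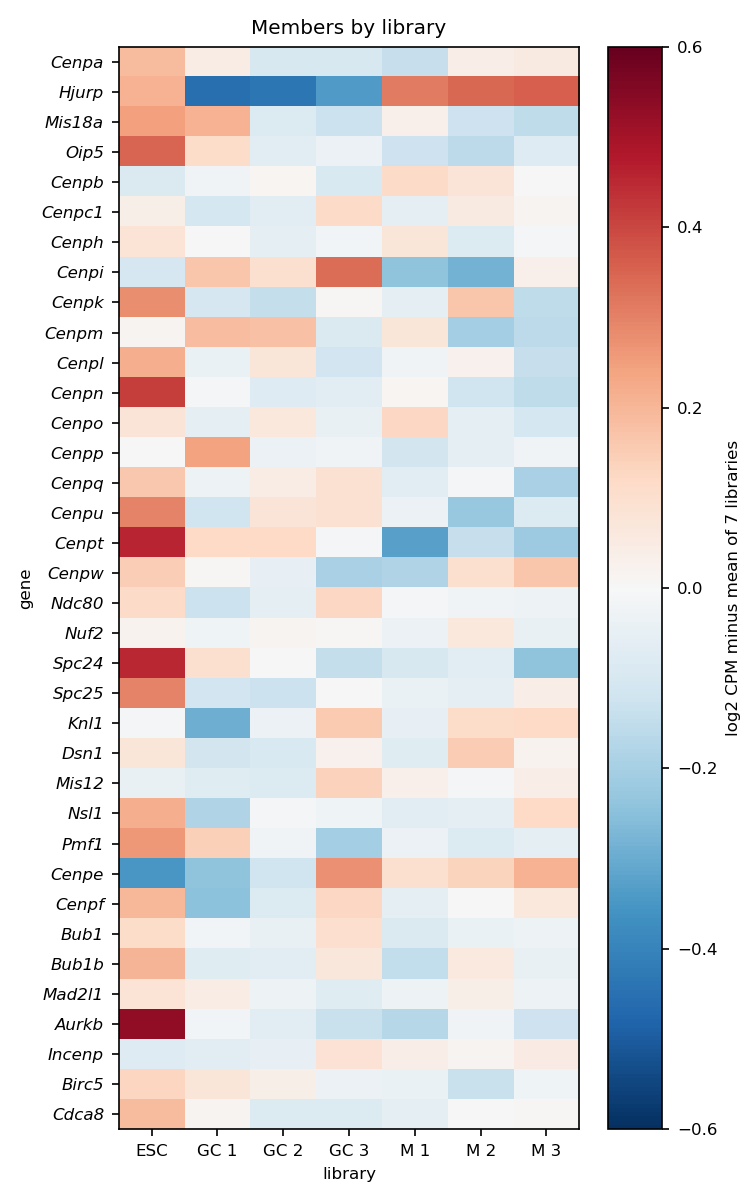
log2 CPM of the 36 members (rows) in each of the 7 libraries (columns), minus the mean over the 7 libraries of that gene; red is above and blue below the mean. Hjurp is blue in the 3 GC colonies and red in the 3 M colonies and ESC, and Aurkb, Cenpt and Spc24 are darkest in ESC.

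**Figure D5:**
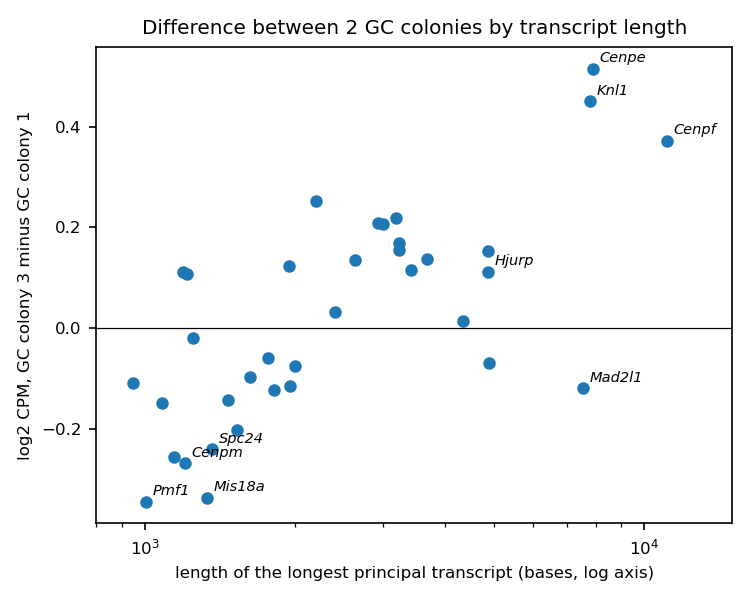
Difference in log2 CPM between GC colony 3 and GC colony 1 for each of the 36 members (points), against the length of the longest principal transcript in bases on a log axis. Cenpe, Knl1 and Cenpf, with long transcripts, lie above 0, and Pmf1 and Mis18a, with short ones, lie below it; the Spearman correlation is 0.69.

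None of the genes around Hjurp that could be tested passed. Of 15 other protein-coding genes within 300 kb, 3 passed the low-count filter. Mroh2a, which ends 182 bases from Hjurp on the opposite strand, averaged 5.68 ± 0.904 CPM over GC and 7.03 ± 0.298 CPM over M colonies (SD, n = 3 each), with a log2 change of 0.31 ± 0.16 (SE, edgeR adjusted p = 0.388). Usp40, 253920 bases away, was 15.5 ± 0.549 and 17.8 ± 1.23 CPM (0.20 ± 0.11 SE, edgeR adjusted p = 0.379). Both had the same sign as Hjurp, at smaller size. Dnajb3, near 1 CPM in both groups, had the opposite sign (-0.13 ± 0.42 SE, edgeR adjusted p = 0.929). Trpm8, which encodes a cold-sensing channel and starts 28 bases from the annotated start of Hjurp on the opposite strand, had at most 1 count in a library. The median change of 839 protein-coding genes tested on chromosome 1 was 0.00. No annotated gene overlaps Hjurp, while 15 of the 36 members overlap another gene, 10 of them a protein-coding one. Cenpt shares 8 bases with Tsnaxip1, and Oip5 shares 172 bases with Nusap1, which itself fell in colonies against ESC, and without a known strand setting the reads of the shared bases cannot be told apart.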

How the data were processed

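Poly-A RNA of 7 libraries was analysed from raw counts per gene that the authors deposited, in whole numbers and not normalized. The submitters' processing notes name STAR 2.7.10a, featureCounts 2.0.6 and DESeq2, and the builds mm10 and GRCm38; their strand setting was not given in the sources used here. The labels name both a non-stranded and a directional library, so genes that overlap on opposite strands may share counts. Even numbers made up 68.5% to 72.2% of the low counts (1 to 49) and 49.5% to 50.9% of those from 1000 up; whether mates were counted one by one was not tested, and the limit at a count of 0 covers counting error only.

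Symbols, positions and lengths came from GENCODE M21 (GRCm38), which matched 54809 of 54838 genes. Counts were filtered with filterByExpr, scaled by TMM and fitted with the two-sided quasi-likelihood test of edgeR 4.0.16 in R 4.3.3, over 18166 genes in 6 libraries (M against GC) and 20502 genes in 7 (mean of both colony groups against ESC). Adjusted p-values are Benjamini-Hochberg over all genes tested, with a threshold of 0.05. Dividing the absolute log2 change by the square root of F gave its SE. DESeq2 1.42.0, RLE scaling, no filter, a replicate block, all 7 libraries for M against GC, and fits without single colonies were the alternatives. On simulated counts for M against GC (17885 genes), 68.7% of genes changed by 0.6 on the log2 scale were recovered, and 97% of those changed by 1.5. For colonies against ESC (19158 genes) these shares were 62% and 83.3%. Genes left unchanged made up 2.4% of the calls for M against GC and 5.5% for colonies against ESC. The simulation gave all genes and libraries, ESC included, a single preset dispersion that was not estimated from these data. The shares therefore do not measure the power of the tests here.

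The members, lists and alternatives were chosen with earlier results of these data known. By the naming rule, values per library are given for Hjurp, each member called in either comparison and the most abundant member of each role; protein-coding genes within 300 kb of Hjurp and chromosome medians are given beside them. Other members with values per library (Cenpi, Cenpf and Knl1) were singled out after their values were seen. The union exon length, for levels and for the ratio of Hjurp to Cenpa, was an alternative added after seeing the data. Groups came from the sample titles.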

Additional observations from a re-analysis of the deposited data

Results flagged for a closer look

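Hjurp was marked because the colony groups lie on opposite sides of the ESC library. Each GC colony was below ESC (log2 of mean CPM -0.62 against ESC) and each M colony was above it (0.13). With 1 ESC library, and because Hjurp was chosen for its values, this difference was not tested. No other member had each single GC colony on one side of ESC and each single M colony on the other.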

How the results depend on the processing

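Members called between M and GC colonies, Hjurp aside, numbered 1 in the reported fit and with RLE scaling or 7 libraries, 2 with DESeq2, without a low-count filter or with the replicate block, and 0 without M colonies 2 and 3; leaving out 1 colony gave 0 to 2. All genes called numbered 721, and 1110 with DESeq2, 1318 without a filter, 373 without M colonies 2 and 3, and 244 to 814 with 1 colony left out (244 without GC colony 2, 270 without M colony 3, 412 without GC colony 1). Against ESC the members called were 6, with 6 to 8 in the other settings and 5 to 10 with 1 colony left out (10 without GC colony 3, which added Pmf1, Cenpe, Cenpf and Bub1b), and all genes called were 3344, with 2575 to 3718 on leaving out 1 colony. Signs near 0 turned in Cenpa (-0.10 without M colonies 2 and 3; -0.001 to 0.094 on leaving out 1 colony), Pmf1 (-0.118 to 0.05) and Bub1b (-0.076 to 0.031), none of them called. The cause of these shifts was not tested. Same-numbered GC and M colonies had deviations that correlated at 0.07, 0.07 and 0.16 across 18166 genes, so the numbers were not taken as pairs, though each colony correlated best with its own number. With the replicate block 2 members passed (Cenpt, and Cenpi at adjusted p = 0.0329) and 963 genes in all. Changes under about 0.3 on the log2 scale in genes at this depth mostly did not pass.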
